A study of Mus musculus with 25 samples.

Results

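The effect of maternal diet was examined in female mice that ate regular chow from weaning on. The members are the samples that the labels code 4B and 6B, 6 of the 25 samples of the series. The 3 samples of group 4B are daughters of dams fed a hypercaloric diet (HCD, a high-sucrose diet with 52% fat, TD.04059.PWD), and the 3 samples of group 6B are daughters of dams fed regular chow (RD). All 6 mice are wild-type C57BL/6J females whose hypothalamus was flash frozen at 3 months of age. Their dams ate the assigned diet from 1 month before mating through pregnancy and lactation, so that the groups differ in what the dam ate and share chow from weaning. Poly(A) RNA libraries were made with a stranded kit. The series also has sons and HCD-weaned offspring, and its title names epigenetic mechanisms and hypothalamic inflammation after maternal Western diet. The labels do not say how many litters the 3 mice of a group came from, so the p-values measure only the spread between these samples.

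The hypothalamus senses nutrients and hormones such as leptin and insulin, and its neurons release peptides that drive or curb feeding and steer the pituitary. Neurons expressing Agrp and Npy promote feeding, while those expressing Pomc and Cartpt restrain it through melanocortin receptors such as Mc4r. The region borders the thalamus, the striatum and the third ventricle with its choroid plexus, and astrocytes and tanycytes line it and feed signals to its neurons. Diet of the dam during gestation and suckling falls in the time when these circuits form.

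The values come from the authors' deposited table of groups 6B and 4B, which lists 24421 genes, 15370 of them with a mean normalized count of 10 or more. Of these, 15028 have an adjusted p and are the genes tested here, and 342 have none. The table gives a mean over the 6 libraries and 1 log2 fold change with its standard error (SE) per gene, and no value of a single library. The library columns of other files carry names that match no label, so no value per mouse can be given. Its mean normalized counts sum to 23564269. Which group is the numerator is not stated. A positive fold change is read here as higher in daughters of HCD dams, from the order of the groups alone, and with the other reading every sign of this table turns together. The same holds for each of the other tables alone, so a comparison of signs between tables assumes 1 order for all. The fold changes and their SE look shrunken toward 0, with no SE among the genes tested above 0.30.

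The labelled sex and tissue were checked first. Xist, the RNA that silences an X chromosome in females, had a mean normalized count of 5611 in the authors' deposited table for these females and of 0.447 in that for RD-weaned males. The Y-linked genes Ddx3y, Uty and Eif2s3y each had a mean of 0.194 and Kdm5d a mean of 0 in the females. Peptides made only in a few hypothalamic nuclei were abundant. On a scale of normalized counts per kilobase of exon and per 1000000 normalized counts, computed from the authors' deposited table, Pmch (melanin-concentrating hormone) stood at 399, Oxt (oxytocin) at 94.8, Hcrt (the orexins) at 74.1 and Avp (vasopressin) at 59.0. Transcription factors of hypothalamic neurons were measured at lower levels, and 8 of 27 had a mean under 10. Markers of neighbouring regions were present too. Mean normalized counts summed to 122126 for choroid plexus, 95748 for cortex and hippocampus, 69347 for striatum and 44731 for thalamus markers. They summed to 7101 for the hypothalamic transcription factors. The lists differ in size and in their genes, so these sums are not shares of tissue.

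By the authors' deposited Wald test, 52 of 15028 genes passed an adjusted p of 0.05, which is 0.346% of the genes tested. Of these, 18 were positive (0.12%) and 34 negative (0.226%) as read, or 34 positive and 18 negative with the sign turned. At an adjusted p of 0.10 there were 90 genes (0.599%). Over all genes tested, 50.9% of fold changes were positive and their median was 0.01 on the log2 scale. The calls were spread over expression levels: 9 had a mean normalized count of 10 to 100, 24 of 100 to 1000, and 19 above that. The 3 calls nearest the threshold were Enc1, Kcnj13 and Rasl11b, with adjusted p-values of 0.0482, 0.0479 and 0.0479 in the authors' deposited table. Just outside it stood Gpr153 (-0.78 ± 0.21, SE) and Zfp423 (-0.93 ± 0.25), both at 0.0524, and Zcchc12 (-1.0 ± 0.27) at 0.0593. Calls near the threshold depended on the setting. Without the filter on low means, the 17 genes with a deposited adjusted p of 0.046 or more missed it, among them Agt (0.0567), Plk2 (0.0581), Gbx2 (0.0585), Dlk1 (0.059) and Kcnj13 (0.059). With a trend on exon length and GC content removed, Irs4 (0.0564), Dlk1 (0.0639) and Kcnj13 (0.0857) missed it. In bulk tissue, fewer cells of a type and less RNA per cell cannot be told apart, and this holds for every value that follows.

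**Figure D1:**
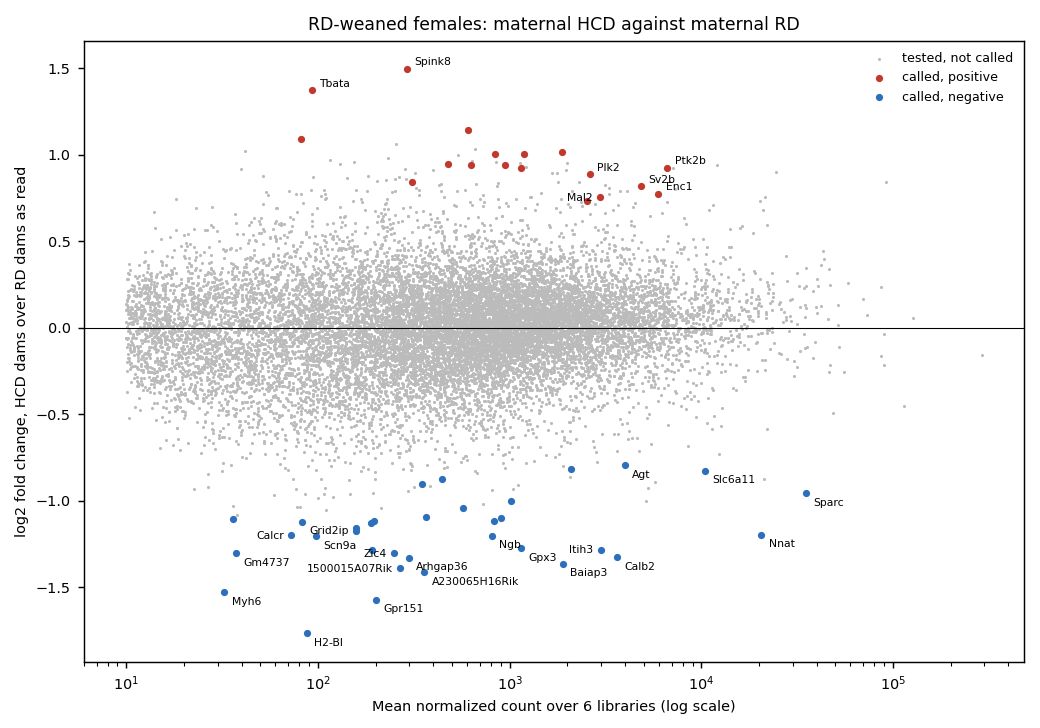
Log2 fold change of maternal diet in RD-weaned females (y axis, HCD dams over RD dams as read) against the mean normalized count over 6 libraries (x axis, log scale) in the authors' deposited table, 1 point per gene tested. Grey points were not called, and the 18 red and 34 blue points had an adjusted p under 0.05. The called genes span the range of expression, with H2-Bl lowest at -1.77 and Spink8 highest at 1.5.

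The gene lists used from here on were chosen with earlier results of these data known. Counts of their members that were called or shared a sign are therefore descriptions and no test. Genes that mark brain regions near the hypothalamus lay on opposite sides of 0. Of 25 tested markers of cortex and hippocampus, 22 were positive, with a median of 0.52, and 2 were called, Spink8 and Mef2c. Spink8, a secreted protease inhibitor typical of hippocampal pyramidal cells (chromosome 9, 109812280 to 109826633, GRCm38), differed 2.82-fold, and Mef2c, a transcription factor of excitatory neurons (chromosome 13, 83504034 to 83667080), 2.02-fold by the authors' deposited table. Other transcription factors of the telencephalon were as large without passing. Emx1 stood at 1.06 ± 0.30 (adjusted p = 0.0756), Neurod2 at 1.04 ± 0.29 (0.0864) and Tbr1 at 1.00 ± 0.29 (0.092) in the authors' deposited table. Slc17a7, the vesicular glutamate transporter of cortical neurons, stood at 0.94 ± 0.28 (0.109). All 17 tested striatum markers were positive with a median of 0.39, led by the adenosine receptor gene Adora2a (0.62 ± 0.29) and Ppp1r1b (DARPP-32, 0.59 ± 0.29), and none was called.

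Choroid plexus markers were positive in 15 of 17 cases, with a median of 0.54. Kl, the klotho gene (chromosome 5, 150952607 to 150993817), and Kcnj13, a potassium channel gene of the plexus epithelium (chromosome 1, 87386363 to 87394729), were called in the authors' deposited table, the second at 0.84 ± 0.22. Ttr, the thyroxine carrier that the plexus secretes, missed the threshold at 0.84 ± 0.23 in the authors' deposited table (adjusted p = 0.0642), as did the lysophospholipase gene Enpp2 at 0.59 ± 0.19 (0.163).

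Thalamus and habenula markers lay on the other side. Of 20 thalamus markers tested, 17 were negative with a median of -0.41, and 4 were called. These were Calb2 (calretinin), the zinc-finger gene Zic4, Grid2ip and the homeobox gene Gbx2, the last 2 at -1.17 ± 0.28 (adjusted p = 0.0141) and -1.11 ± 0.29 (0.0474) in the authors' deposited table. Zic4 overlaps Zic1 on the opposite strand, which stood at -0.93 ± 0.29 (0.14). The other leading markers were Slc17a6, the vesicular glutamate transporter of the thalamus and hypothalamus (-0.78 ± 0.29), and the transcription factor Tcf7l2 (-0.77 ± 0.29). Among 12 habenula markers, 10 were negative (median -0.40) and Gpr151, a receptor of habenular neurons, was called with a value 2.97-fold lower by the authors' deposited table. Irx1 (-0.96 ± 0.29, adjusted p = 0.12) and Irx2 (-0.87 ± 0.29, 0.233) followed it in the authors' deposited table. Chrna3, a nicotinic receptor subunit of the habenula, stood at -1.09 ± 0.29 with its p and adjusted p left blank by the authors.

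Hypothalamic transcription factors were themselves mostly negative, in 18 of 19 tested members, with a median of -0.31 and no call. Over the 8 members with a mean of at least 100 it was -0.14, with 7 negative. Among the leading members were Dlx1 (-0.69 ± 0.24, adjusted p = 0.3) and Foxb1 (-0.82 ± 0.30, 0.352), which marks mammillary neurons, in the authors' deposited table. Most region markers of a list thus had 1 sign. Their part in the result of any other gene was not tested, and their summed level per library is not given, since the table holds 1 mean over all 6 libraries.

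**Figure D2:**
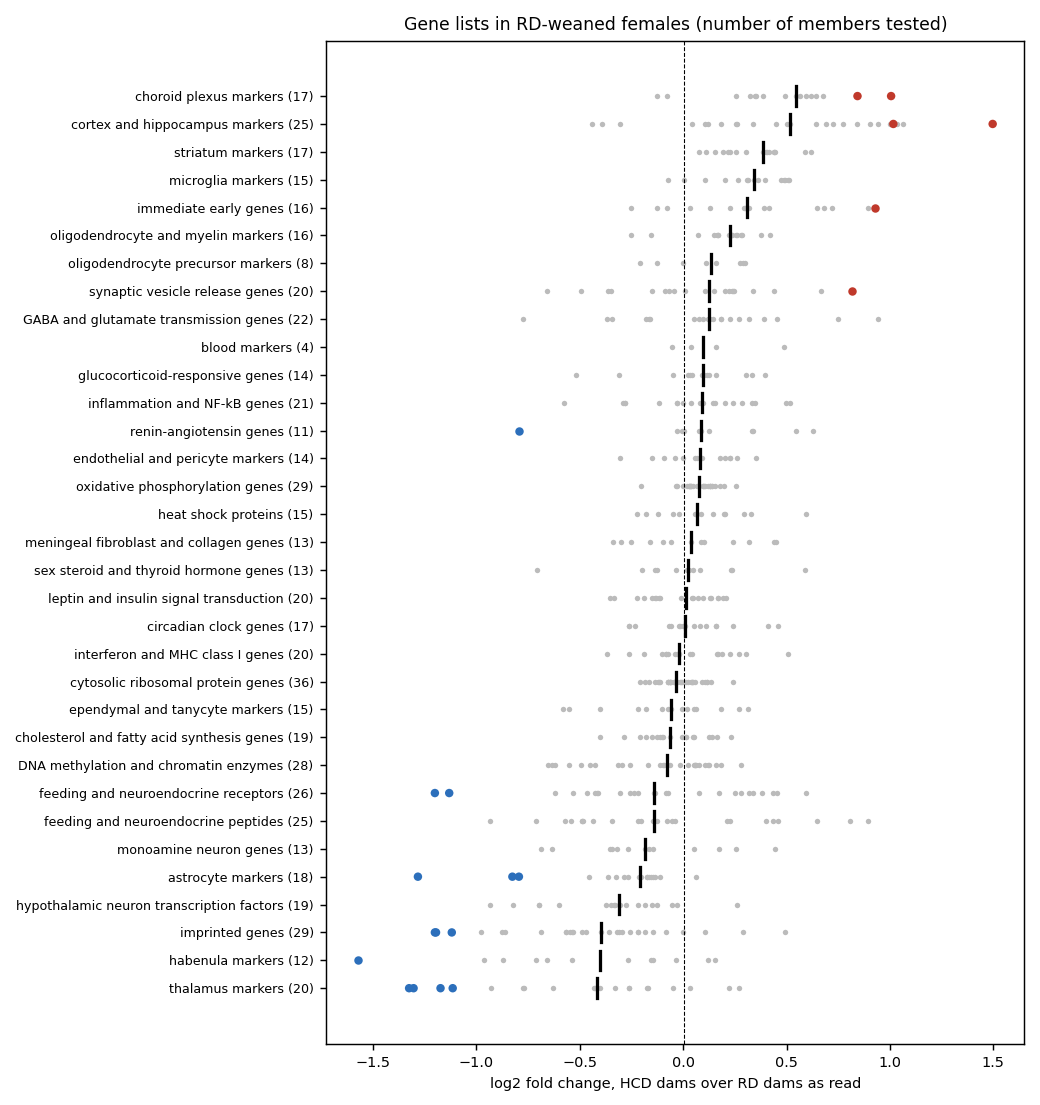
Log2 fold change (x axis, HCD dams over RD dams as read) of each tested member of 33 gene lists in RD-weaned females, from the authors' deposited table. Points are genes, red and blue where called positive and negative, black ticks are list medians, and numbers in brackets count the members tested. Medians run from 0.54 in choroid plexus and 0.52 in cortex and hippocampus markers to -0.41 in thalamus markers.

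Imprinted genes, expressed from 1 parental copy and known for roles in growth, suckling and hypothalamic development, were negative in 25 of 29 tested members. Their median was -0.40, against 0.01 over all genes tested, and 14 of the 29 had an unadjusted p under 0.05, compared with 6.16% of all genes. The 3 called members were Nnat, Calcr and Dlk1. Nnat, which encodes neuronatin, a small membrane protein of the endoplasmic reticulum, was the most abundant called gene per length, at 478 on the same scale per kilobase. The authors' deposited table puts it at -1.19 ± 0.24 (adjusted p = 0.00113), or 2.29-fold lower. Nnat lies on chromosome 2 from 157560078 to 157562522, within Blcap on the opposite strand, which stood at -0.21. Calcr, the receptor gene for calcitonin and, with partner proteins, amylin (chromosome 6, 3685680 to 3764714), stood at -1.20 ± 0.28 (0.0128). Dlk1, a membrane ligand of preadipocytes and neuroendocrine cells (chromosome 12, 109452823 to 109463336), stood at -1.12 ± 0.30 (0.0479).

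Several imprinted genes that did not pass were negative too. The authors' deposited table gave Meg3, the maternally expressed RNA of the Dlk1 locus, -0.88 ± 0.25 (adjusted p = 0.0929), and Rian and Mirg of the same locus -0.36 and -0.32. On chromosome 6, which holds Calcr, Asb4 stood at -0.98 ± 0.28 (0.0929), Peg10 at -0.53 ± 0.26 and Sgce at -0.08 ± 0.21. Peg3, a zinc-finger gene tied to maternal behaviour (-0.86 ± 0.29, 0.274), and its neighbour Usp29 (-0.69 ± 0.28, 0.555) were negative as well. Cdkn1c, a cell cycle inhibitor, was the most positive member at 0.49. Many imprinted genes are strongest in hypothalamic neurons, and the transcription factors of those neurons had a median of -0.31 in the same table (-0.14 at a mean of at least 100). The part of those neurons in the values of imprinted genes was not tested.

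**Figure D3:**
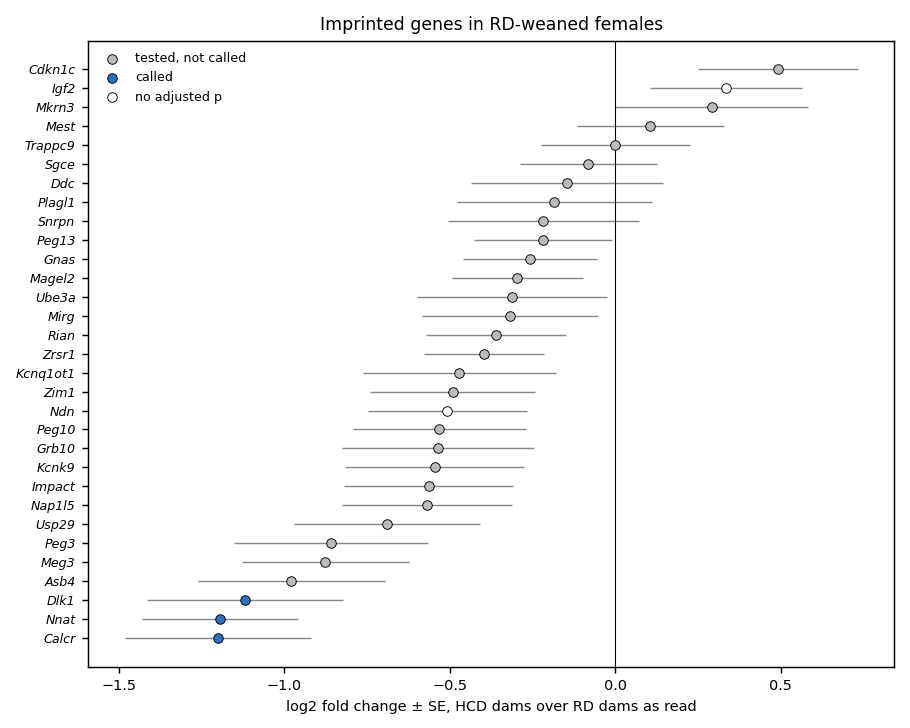
Log2 fold change with its SE (x axis, HCD dams over RD dams as read) of 31 imprinted genes with a mean normalized count of 10 or more in the authors' deposited table of RD-weaned females. Blue points were called, grey points were tested and not called, and the 2 white points have no adjusted p. Nnat, Calcr and Dlk1 are lowest, and Cdkn1c is highest at 0.49.

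Among glial genes, astrocyte markers were negative in 17 of 18 cases with a median of -0.21, and 3 were called. Agt, angiotensinogen, which astrocytes make as the precursor of brain angiotensin (chromosome 8, 124556534 to 124569706), stood at -0.79 ± 0.21 in the authors' deposited table (adjusted p = 0.046), or 1.73-fold lower. Slc6a11, the astrocytic GABA transporter GAT-3, stood at -0.83 ± 0.21 (0.0398). The third was Itih3, an inter-alpha-trypsin inhibitor heavy chain of the extracellular matrix, 2.43-fold lower. Slc1a3, the astrocytic glutamate transporter GLAST, stood at -0.29 ± 0.19 in the authors' deposited table (adjusted p = 0.994). Sparc, a matrix-binding glycoprotein outside these lists, was the called gene with the highest mean normalized count, 35135, and stood at -0.96 ± 0.22 (0.00898).

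Microglia markers were positive in 14 of 15 cases, with a median of 0.34 and none called. The leading members were Tmem119 (0.51 ± 0.23, adjusted p = 0.67), Selplg (0.49 ± 0.22) and the receptor gene Csf1r (0.36 ± 0.18) in the authors' deposited table. Myelin genes were positive in 14 of 16 cases with a median of 0.23, again with none called. Ependymal and tanycyte markers (6 positive, 9 negative, median -0.06), endothelial and pericyte markers (9 and 5, median 0.08) and meningeal genes (7 and 6, median 0.04) had medians within 0.1 of 0.

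Of the feeding and neuroendocrine peptides, 25 were tested, 8 positive and 17 negative, with a median of -0.14, or -0.06 over the 18 with a mean of at least 100, and none was called. Nms, neuromedin S of the suprachiasmatic nucleus, came nearest at -0.93 ± 0.27 (adjusted p = 0.0929) in the authors' deposited table. Npy stood at 0.89 ± 0.28 (0.167) and Cck, which cortex also makes in abundance, at 0.81 ± 0.28 (0.303). The other arcuate peptides were closer to 0: Agrp at -0.05 ± 0.22, Cartpt at -0.48 ± 0.24, and Pomc at 0.36 ± 0.23 with no adjusted p. Agrp was scarce, at 0.588 on the scale per kilobase against 133 for Npy, so little can be read from its value.

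Peptides of the paraventricular and lateral hypothalamus were negative and did not pass. Oxt stood at -0.44 ± 0.20 (adjusted p = 0.699), Trh (thyrotropin-releasing hormone) at -0.54 ± 0.26, Crh (corticotropin-releasing hormone) at -0.49 ± 0.29 and Avp at -0.22 ± 0.16 in the authors' deposited table. Pmch stood at -0.20 ± 0.17 and Hcrt at -0.08 ± 0.11. The SE of Hcrt and Pmch were unusually small: that of Hcrt was the smallest of all genes tested, and 0.339% had a smaller one than Pmch. Where a fold change is shrunken its SE shrinks with it, so these intervals may understate the spread between the libraries, which was not tested.

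Receptors and their adaptors had 26 tested members, 16 of them negative, with a median of -0.14 and 2 calls. Over the 15 members with a mean of at least 100, 8 were positive and the median was 0.25, so the list had no stable direction. Besides Calcr, Irs4, an insulin receptor substrate of hypothalamic neurons (chromosome X, 141710998 to 141725263), was called at -1.13 ± 0.29 in the authors' deposited table (adjusted p = 0.0344). The leptin receptor gene Lepr stood at -0.31 ± 0.29, Mc4r at -0.24 ± 0.29 and Ntrk2, the receptor of brain-derived neurotrophic factor, at -0.46 ± 0.19, and none of these passed. The signalling steps behind leptin and insulin were even, with 10 of 20 members positive, a median of 0.02 and no call. Esr1, the oestrogen receptor alpha gene that restrains feeding in females, stood at -0.70 ± 0.29 in the authors' deposited table (adjusted p = 0.555). In the renin-angiotensin list Agt was the call among 11 members, and the angiotensin receptor gene Agtr1a (-0.03 ± 0.22), at a mean normalized count of 13.4, did not pass.

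Genes that neurons switch on with activity were positive in 13 of 16 cases, with a median of 0.31. Homer1, a postsynaptic scaffold gene whose short form is induced by activity, was called at 0.93 ± 0.22 (adjusted p = 0.0128) in the authors' deposited table. Egr4 (0.89 ± 0.26, 0.0918), Arc (0.72 ± 0.26, 0.365) and Junb (0.68 ± 0.27, 0.494) followed, while Fos stood at -0.13. Plk2, a polo-like kinase that is also induced at active synapses and is not in the list, was called at 0.89 ± 0.23 (0.0471). Several of these genes are strong in cortex and hippocampus, whose markers had a median of 0.52 in the same table, and the part of those regions was not tested.

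The promoters of Homer1 and Plk2 are shown because both genes were called positive and both hold the letters TGACGT, the core of the cAMP response element. The windows are the 250 bases before each RefSeq start (GRCm38.p6, plus strand), at chr13:93303507-93303756 for Homer1 and chr13:110394794-110395043 for Plk2, with the matches in capitals.
Homer1: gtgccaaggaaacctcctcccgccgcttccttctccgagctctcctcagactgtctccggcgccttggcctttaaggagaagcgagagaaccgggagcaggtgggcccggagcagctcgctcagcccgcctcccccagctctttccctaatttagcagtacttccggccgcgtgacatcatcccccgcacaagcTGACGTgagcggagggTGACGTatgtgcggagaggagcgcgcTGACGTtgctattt
Plk2: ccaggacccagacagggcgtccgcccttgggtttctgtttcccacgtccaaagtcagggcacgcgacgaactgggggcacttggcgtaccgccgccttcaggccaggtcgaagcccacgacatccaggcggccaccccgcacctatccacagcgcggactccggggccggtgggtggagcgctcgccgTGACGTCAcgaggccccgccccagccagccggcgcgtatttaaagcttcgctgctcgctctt
The Homer1 window, which lies inside the gene as GENCODE M21 bounds it and in none of its exons, holds 3 matches. The Plk2 window holds the palindrome TGACGTCA, which matches on both strands. Both strands were searched, and a gene was counted if any of its windows matched. TGACGT occurred in 7.29% of the 27025 genes with such a window and in 11% of the 11362 of them that were tested. It occurred in 8 of 14 genes of the activity list, in 3 of 10 genes called positive and in 0 of 24 genes called negative. The rest of the 18 positive and 34 negative calls had no such window. Homer1 and Plk2, picked for holding it, are among those 3, and no difference between these shares was tested. A match is a description of the letters and not a bound site.

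The remaining positive calls, Sv2b apart, were in no list. Tbata, a gene named for thymus, brain and testis, stood at 1.37 ± 0.30 (adjusted p = 0.00473), and Fhl2, a LIM-domain adaptor gene, at 1.14 ± 0.29 (0.0345) in the authors' deposited table. Rasl11b, a small GTPase gene, stood at 1.01 ± 0.27, Fam19a1, which encodes a secreted chemokine-like protein, at 0.95 ± 0.25, and both Mpp3, a membrane scaffold gene, and the orphan receptor gene Gpr22 at 0.94 ± 0.21. Gpr22 overlaps Cog5 on the other strand, at 0.12. Ptk2b, the calcium-activated kinase Pyk2, stood at 0.93 ± 0.24, the actin-binding gene Enc1 at 0.77 ± 0.21, the sorting gene Mal2 at 0.75 ± 0.18 and the adenylate kinase gene Ak5 at 0.73 ± 0.19. Sv2b, a synaptic vesicle glycoprotein gene that is high in cortex (0.82 ± 0.20, adjusted p = 0.0233), was the call among 20 vesicle release genes, 12 of them positive, in the authors' deposited table. Gm1821, a processed pseudogene at 1.09 ± 0.27, may share reads with its parent copies and is uncertain.

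On the negative side, H2-Bl had the smallest p of all genes tested. It is a class I histocompatibility gene annotated as a polymorphic pseudogene (chromosome 17, 36080115 to 36084223), with a mean normalized count of 87.3, and the authors' deposited table puts it at -1.77 ± 0.29 (adjusted p = 1.65e-05). The other 18 tested genes of the H2 family were not called. H2-K1 stood at 0.30, H2-D1 at -0.02 and their light chain B2m at 0.19, and since copies of this family are near identical, the assignment of reads to H2-Bl is uncertain. Myh6, the heart alpha-myosin gene, was scarce, with a mean of 32.5, and stood at -1.53 ± 0.28 (0.00035).

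Further negative calls were in no list. Baiap3, a dense-core vesicle gene (-1.36 ± 0.29, adjusted p = 0.00473), and Sytl4, which encodes the granule-docking protein granuphilin (-1.28 ± 0.30, 0.00969), were called in the authors' deposited table. So were Arhgap36, which is typical of hypothalamic neurons (-1.33 ± 0.30, 0.00775), and the cationic amino acid transporter gene Slc7a3 (-1.09 ± 0.25, 0.00969). Gpx3, a secreted glutathione peroxidase gene, stood at -1.27 ± 0.29 and Ngb, the neuronal globin gene, at -1.20 ± 0.29. Cfap46, a gene of motile cilia, stood at -1.15 ± 0.27 in the authors' deposited table. The unnamed loci A230065H16Rik (-1.41 ± 0.29), 1500015A07Rik (-1.39 ± 0.30) and Gm4737 (-1.30 ± 0.29) were called too, the second lying opposite Afap1l1, which stood at 0.21. The last 9 negative calls, named after their values were seen, were Scn9a, Igsf1, Col6a5, Rtbdn, Cbln1, Ctxn3, Heyl, Plxna3 and Dzip1, from -1.20 to -0.82. Whether the authors counted by strand is not given in the sources used here, so genes that overlap on opposite strands may share reads.

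Lists on stress, inflammation and metabolism held no call. Inflammation and NF-kB genes were positive in 13 of 21 cases with a median of 0.09, and interferon and class I genes in 9 of 20 with a median of -0.02, in the authors' deposited table. At an unadjusted p under 0.05 the first list held 1 gene, the chemokine gene Cxcl10 (-0.58 ± 0.27), and the second held 0. Enzymes of DNA methylation and chromatin were negative in 16 of 28 cases with a median of -0.08. An unadjusted Wald p under 0.05 was found for 4 of the 28, against 926 of all 15028 genes tested (6.16%). These 4, none of them called, were the acetyltransferase genes Crebbp (-0.65) and Ep300 (-0.50) and the methyltransferase genes Kmt2a (-0.62) and Kmt2d (-0.64). Over all genes tested the Wald statistic fell with exon length (Spearman's rho -0.20). With a trend on exon length and GC content removed, 15 of the 28 members were negative. The part of length in the values of the 4 genes was not tested. Circadian clock genes (9 of 17 positive, median 0.01), glucocorticoid-responsive genes (11 of 14, median 0.09) and heat shock genes (10 of 15, median 0.07) lay near 0. Oxidative phosphorylation genes were positive in 25 of 29 cases by little, with a median of 0.08, and ribosomal protein genes in 13 of 36 with a median of -0.03. Of 13 monoamine genes, 9 were negative, led by the monoamine oxidase gene Maob at -0.69 ± 0.22 in the authors' deposited table (adjusted p = 0.176).

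The same question was asked in 3 other pairs of groups that share no sample with these females: RD-weaned males, HCD-weaned females and HCD-weaned males. Nnat was also called in RD-weaned males, at -0.90 in the authors' deposited table, and Myh6 (-1.40), Calcr (-1.61) and Irs4 (-1.32) were also called in HCD-weaned males. No other of the 52 genes was called elsewhere, where 0.0851%, 1.52% and 0.163% of genes tested were called in that order. Of the 18 positive calls, 14 were positive in RD-weaned males and 11 in each of the HCD-weaned sexes, where 50.02%, 54.4% and 48.9% of all genes tested were positive. Of the 34 negative calls, 24, 24 and 25 were negative there as read, where 49.98%, 45.6% and 51.1% of all genes tested were. The medians were nearer 0: the positive calls had a median of 0.94 here and of 0.44, 0.08 and 0.05 there, and the negative calls of -1.18 here and of -0.24, -0.22 and -0.26 there. If 1 of the other tables is turned, 4 of 18 positive calls and 10 of 34 negative calls keep their sign in RD-weaned males, 7 and 10 in HCD-weaned females, and 7 and 9 in HCD-weaned males. The genes were chosen for their size in RD-weaned females, so a smaller value elsewhere is no test.

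**Figure D4:**
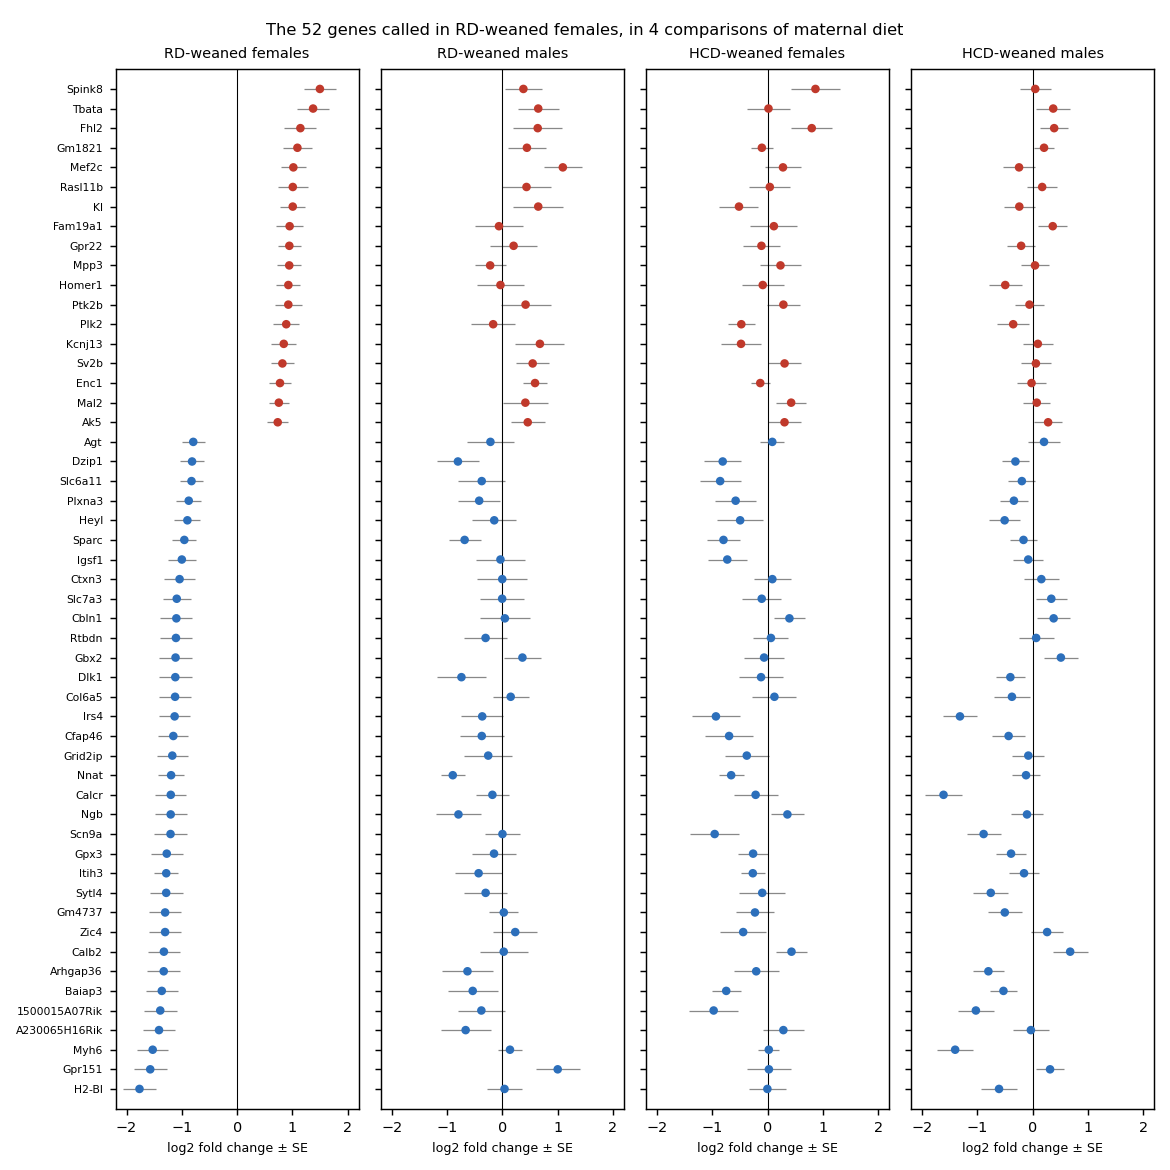
Log2 fold change with its SE (x axes, HCD dams over RD dams as read) of the 52 genes called in RD-weaned females, 1 row per gene, in the authors' 4 deposited tables of maternal diet. Red genes were called positive and blue genes negative in the first panel, which sets its own pattern. Mef2c and Nnat keep values near 1 and -1 in RD-weaned males, and Gpr151 stands at 1.00 there against -1.57 in females.

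Differences between the fold changes were tested gene by gene. Against RD-weaned males 1 of 12636 genes passed an adjusted p of 0.05 (0.00791%). It was Gpr151, at -1.57 ± 0.29 in the females and 1.00 ± 0.40 in the males in the authors' deposited tables, a difference of -2.57 ± 0.50 (adjusted p = 0.00295). Against HCD-weaned females 1 of 14603 passed (0.00685%), the metallothionein gene Mt1, at 0.04 ± 0.25 here and 1.74 ± 0.21 there. Against HCD-weaned males 8 of 14819 passed (0.054%). There, Pmch, Oxt and Hcrt differed by 1.73 ± 0.35, 1.83 ± 0.37 and 1.65 ± 0.34. They stood at -0.20, -0.44 and -0.08 here and at -1.93, -2.27 and -1.73 in the males. With each Wald statistic divided by its robust spread these 3 did not pass (adjusted p = 0.632, 0.76 and 0.853, from the authors' tables). Gpr151 and Calb2 differed the other way, by -1.88 ± 0.39 and -2.0 ± 0.43, and passed on that scale too (both 0.02). Gng8, Gdpd3 and Myoc made up the 8 and did not pass on that scale. As read, the other called genes were not shown to differ between the groups. Against HCD-weaned females, Calb2 and H2-Bl had an adjusted p of 0.0572 and 0.0802 as read in this test. Both passed with Wald statistics over their robust spread (0.0253). All of these rest on reading both tables in the same order, and turning 1 of them gave 14, 186 and 65 differences in place of 1, 1 and 8. Gpr151 and Calb2 were then not among them, while Mt1, Pmch, Oxt and Hcrt were.

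With all tables read in the same order, region markers had no common direction over the 4 comparisons. If 1 table is turned, the signs and medians given for it reverse. Thalamus markers were negative in 17 of 20 cases here and positive in 21 of 22 in RD-weaned males, with medians of -0.41 and 0.39 in the authors' deposited tables. Striatum markers were positive in all 17 cases here and negative in all 17 in HCD-weaned males (median -0.61). Choroid plexus markers had a median of 0.54 here and of -0.25 in HCD-weaned females, and habenula markers of -0.40 here and 0.48 in HCD-weaned males. The activity list had medians of 0.31 here, -0.38 in RD-weaned males and -0.30 in HCD-weaned females. As read, hypothalamic transcription factors were negative in 18 of 19, 11 of 15, 10 of 17 and 19 of 21 cases over the 4 comparisons. Imprinted genes had medians of -0.40 here and of -0.04, -0.17 and -0.28 in RD-weaned males, HCD-weaned females and HCD-weaned males. Astrocyte markers were negative in 17 of 18 cases in both RD-weaned sexes, in 10 of 18 in HCD-weaned females and in 9 of 18 in HCD-weaned males. Their medians were -0.21 here and -0.31, -0.26 and -0.01 in RD-weaned males, HCD-weaned females and HCD-weaned males. These are descriptions of lists, and no difference between lists was tested.

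**Figure D5:**
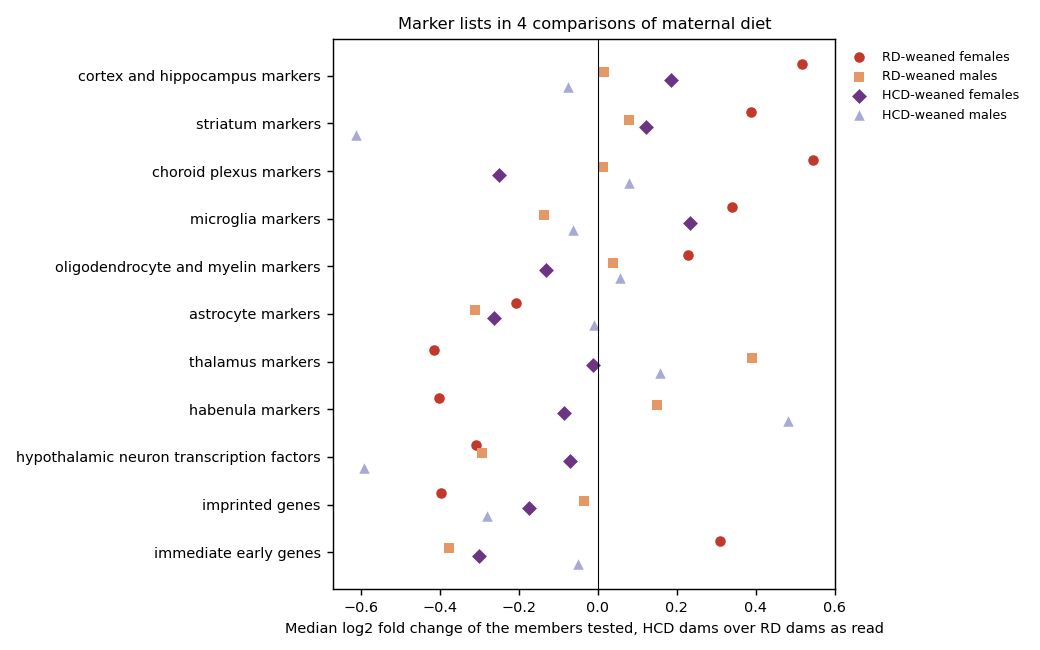
Median log2 fold change (x axis, HCD dams over RD dams as read) of the tested members of 11 gene lists in the authors' 4 deposited tables of maternal diet. Each symbol is 1 comparison, with no error drawn. Thalamus markers lie at -0.41 in RD-weaned females and 0.39 in RD-weaned males, and striatum markers at 0.39 in RD-weaned females and -0.61 in HCD-weaned males.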

How the data were processed

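Stranded mRNA libraries of hypothalamus were sequenced, 3 per group, or 4 for RD-weaned males of RD dams. The submitters' processing notes name DESeq, without a version, and, per the labels, mm10. The sources used here name no aligner, counter or annotation. The authors' 4 comparison tables were used, out of 12 files. The 48 library columns match no label and were not used (for RD-weaned males there are 6 columns for 7 samples), so depth per sample is not given here and the planned count test and fits by library were not run. The mean normalized count is a signal the authors computed over libraries, per the file headers. Fold changes and SE are log2 values the authors deposited. The Wald statistic, a score in the deposited tables, equals their ratio. The p-value and adjusted p-value are the authors', and a call is an adjusted p under 0.05 among genes with a mean of 10 or more. Genes under 10 (9051) have no adjusted p.

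Differences between tables were divided by the root of their summed squared SE, referred to the normal distribution and adjusted by the Benjamini-Hochberg method over genes with both adjusted p-values, in 3 pairs (SciPy 1.17.1, pandas 2.3.3), and the code was tested on simulated data. Positions and exon lengths are from GENCODE M21, which matched 95.6% of symbols, and promoters from RefSeq. The 35 lists (657 symbols, 591 tested) are described without a set test. Named genes were the 20 positive and 20 negative calls with the smallest adjusted p, called list members, up to 4 leading members of a list, chosen peptides and receptors, and the genes next to the threshold. Members and lists were chosen with earlier results of these data known. Alternatives were other filters, thresholds, centring, spread, a length and GC trend, and the sign. A few named results are not reported here.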

Additional observations from a re-analysis of the deposited data

Results flagged for a closer look

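Of the differences in the effect of maternal diet between RD-weaned females and another pair of groups, 6 are taken up here. They passed the test of the difference itself, computed from the authors' deposited tables. Mt1, Gng8, Gdpd3 and Myoc passed it as well and are not among the 6. From the authors' deposited tables, Gpr151 had a difference in log2 fold change of -2.57 from RD-weaned males (adjusted p = 0.00295) and of -1.88 from HCD-weaned males (adjusted p = 0.00483). Calb2 differed from HCD-weaned males by -2.0 in the same test on the authors' deposited tables (adjusted p = 0.00738). Pmch differed from HCD-weaned males by 1.73, Oxt by 1.83 and Hcrt by 1.65, each with an adjusted p of 0.00483. Gpr151 and Calb2 belong to the habenula and thalamus lists, whose medians were 0.48 and 0.16 in HCD-weaned males against -0.40 and -0.41 in RD-weaned females, and the part of those regions was not tested. With each Wald statistic divided by its robust spread, Gpr151 still passed against both groups of males and Calb2 against HCD-weaned males, while Pmch, Oxt and Hcrt did not (adjusted p = 0.632, 0.76 and 0.853, from the authors' tables). With 1 table turned, Gpr151 and Calb2 did not pass, and Pmch, Oxt and Hcrt did. The SE of Hcrt in RD-weaned females was the smallest of all genes tested there, and 0.339% and 9.50% of genes tested had a smaller SE than Pmch and Oxt.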

How the results depend on the processing

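No call of a named gene changed direction under a filter, centring or threshold alternative. Turning the sign reverses every gene by construction and gives 34 positive and 18 negative calls. Without a filter on low means 35 genes were called, 11 of them positive and 24 negative, all among the 52. With the statistic over its robust spread 74 were called, 29 of them positive. At an adjusted p under 0.10 there were 90 calls, 37 positive and 53 negative. Fold changes centred on their median gave 49 calls, and so did removal of a trend on length and GC, 39 of these shared with the 52. Of single results, 3, 12 and 17 lost their call under centring, trend removal and no filter. The share of oxidative phosphorylation genes with a positive sign went from 86.2% to 62.1% with the trend removed. Over members with a mean of at least 100, the medians of receptors (0.25), meningeal genes (-0.06) and interferon genes (0.04) changed sign. Of the differences, that from HCD-weaned females had 1 gene as deposited, 12 at an adjusted p under 0.10, 5 with Wald statistics over their spread and 186 with the sign turned. That from HCD-weaned males had 8, 2 with Wald statistics over their spread and 65 turned, and that from RD-weaned males had 1, and 14 turned. No paired analysis was possible because the library columns match no label and carry no replicate number. Leaving out libraries, other count tools and normalizations and unfiltered counts were not run for the same reason, so whether 1 library decides a value was not tested. Depth per sample is not given here.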

Other observations

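Genes of the X chromosome leaned negative in these females. Of 512 tested X-linked genes, 62.7% were negative in the authors' deposited table, with a median of -0.07, and 6 were called, all negative: Arhgap36, Igsf1, Plxna3, Slc7a3, Sytl4 and Irs4. Over all 15028 genes tested, 7382 were negative and 52 were called (0.346%). Among offspring of the other pairs of groups, the share of negative X-linked genes was 52.6% (males, RD-weaned), 60.1% (females, HCD-weaned) and 65.6% (males, HCD-weaned). Over all genes tested there, 49.98%, 45.6% and 51.1% were negative in that order. Xist stood at -0.30 ± 0.28 (SE) in RD-weaned females and did not pass.

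Genes with a mean of 10 or more and no adjusted p in the authors' deposited table include some with fold changes as large as those of called genes, named here after their values were seen. Ppp1r17 stood at -1.38 ± 0.29 (SE), Chrna3 at -1.09 ± 0.29 and the glutamate receptor subunit gene Grin2d at -1.04 ± 0.27. The authors left the unadjusted p of these genes blank too, and the sources used here give no reason. They are therefore not read as missed calls. With p-values adjusted over all 15370 genes with a mean of 10 or more, 55 genes were called, 37 of them negative. Where the authors gave no p, that count used a p computed from the Wald statistic.

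Across all genes tested, Spearman's rho between the Wald statistic in RD-weaned females and exon length was -0.20, a description over genes of the same 6 libraries.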
